A study of Rattus norvegicus with 6 samples.

Results

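The 9 laminin chain genes Lama1, Lama2, Lama3, Lama4, Lama5, Lamb1, Lamb2, Lamb3 and Lamc1 were followed in crushed and intact rat sciatic nerve. They were chosen by gene symbol from a table of 30957 genes, and each symbol had 1 row. The choice did not rank measured values, but earlier results of these data were known when it was made. The 6 samples came from Sprague Dawley rats, 3 from sciatic nerves after a crush and 3 from the intact nerve of the other side. For these samples the study describes no transgene, and no drug beyond pentobarbital anesthesia for the surgery. The study's methods describe adult male rats and proximal nerve stumps collected 4 days after injury, with rRNA depletion and RNase R treatment before library preparation. The sample labels name another extraction kit than the methods and no RNase R step, so whether these libraries were treated with RNase R, which degrades linear RNA, is not settled here. The contralateral nerve came from an operated animal and is not a nerve of a naive rat. Nothing in the labels says which nerves came from the same rat. The main tests treated the 6 nerves as independent, though a crushed and an intact nerve may share a rat. RNA was measured by bulk RNA-seq, in which fewer cells of a type and less RNA per cell cannot be told apart.

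Laminins are heterotrimers of 1 α, 1 β and 1 γ chain, coded by the Lama, Lamb and Lamc genes. They assemble in the endoplasmic reticulum, are secreted, and form the sheet of the basal lamina together with type IV collagen, nidogens and heparan sulfate proteoglycans. In peripheral nerve each Schwann cell-axon unit is wrapped in a basal lamina in which the α2 chain, product of Lama2, is the best-known α chain, and this tube guides regrowing axons after a crush. Cells bind it through the C-terminal globular part of the α chain by integrins and dystroglycan.

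The libraries held 24844371 to 27139360 counts per nerve, and 12393 of the 30957 genes passed the filter on low counts. Nerves of the same group differed by more than counting noise in every pair (chi-square per degree of freedom from 3.27 to 11.8), with the intact 1 nerve in the pairs that differed most among the intact nerves. Some defining markers of the labelled tissue had few or no counts. Of 13 Schwann cell and myelin markers, 6 had at most 3 counts, the floor used here, in each nerve, namely Mbp, Mag, Sox10, S100b, Cdh19 and Ncmap. Another 6 were above the floor in all nerves, among them Pmp22 at 821 to 968 and Prx at 590 to 690 counts. Erbb3 had 135, 130 and 131 counts in intact and 90, 94 and 89 counts in crushed nerves. Of the 6 markers of this list that were tested, 4 had a negative log2 fold change (crushed minus intact) and 2 a positive one. In 2 of them the crushed nerves lay wholly below the intact ones, against 12.2% of all genes tested. At an adjusted p under 0.05 (edgeR) 1 fell and 0 rose, against 1.65% and 1.47% of all genes. The summed level of the 13 was 18.7 to 19.9 FPKM (fragments scaled to transcript length and library size) in intact and 18.2 to 18.5 FPKM in crushed nerves. Of 12 macrophage markers, 8 were at or under the floor in every nerve, including Ptprc and Adgre1 at 0, and the list summed to 1.05 to 1.84 FPKM in intact and 1.40 to 2.01 FPKM in crushed nerves. The 6 proliferation markers summed to 704.4 to 719.8 FPKM in intact and 705.3 to 716.0 FPKM in crushed nerves, with 37037 to 43837 counts of Mki67 per nerve. This held for all 6 libraries, so no result could be given without them, and the levels below are those of libraries labelled as nerve. The table also listed 13532 genes at 0 in all nerves, among them Hprt1, a gene of purine salvage used by nearly every cell. An exact 0 was therefore not read as absence of the RNA, also for Mag, Cdh19, Ncmap and the 6 macrophage markers at 0. Among genes used by most cells, Ppia had 117 to 152 counts per nerve, against 60692 to 72156 for Rplp0. Whether low counts in the table fall short of the RNA was not tested.

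Promoter windows of 3 α chain genes are shown because the α chain gives a trimer its receptor contacts and because they are the α chains with the highest levels below and the α2 chain of Schwann cells. RefSeq (GRCr8, a later build than the one of the deposited table) gave a promoter for 8 of the 9 members. Only bases before the annotated start site are printed, 5′ to 3′ on the strand of the gene. Capitals mark matches on either strand to TGANTCA, a motif of AP-1 factors, or to GGGCGG, the core of a GC box. Both motifs were chosen after the values and the sequences had been seen.
Lama3, chr18:3952517-3952766, plus strand: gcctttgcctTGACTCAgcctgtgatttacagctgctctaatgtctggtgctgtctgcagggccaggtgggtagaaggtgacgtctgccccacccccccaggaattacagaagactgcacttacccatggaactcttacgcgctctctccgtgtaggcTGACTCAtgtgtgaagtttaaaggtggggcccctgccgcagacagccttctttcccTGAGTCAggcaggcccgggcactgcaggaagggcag
Lama5, chr3:187695975-187696224, minus strand: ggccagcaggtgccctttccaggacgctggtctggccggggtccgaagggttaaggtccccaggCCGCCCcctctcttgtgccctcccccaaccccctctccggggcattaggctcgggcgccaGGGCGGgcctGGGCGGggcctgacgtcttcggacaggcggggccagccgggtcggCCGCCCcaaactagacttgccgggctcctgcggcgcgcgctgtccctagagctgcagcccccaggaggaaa
Lama2, chr1:19491896-19492125, plus strand: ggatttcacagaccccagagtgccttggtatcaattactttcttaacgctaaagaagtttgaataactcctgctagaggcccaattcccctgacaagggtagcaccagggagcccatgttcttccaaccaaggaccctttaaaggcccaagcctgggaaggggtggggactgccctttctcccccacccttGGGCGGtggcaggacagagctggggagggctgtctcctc
The Lama3 window held 3 matches to TGANTCA, which began 240, 92 and 36 bases before the start site, and none to GGGCGG. The Lama5 window held 4 matches to GGGCGG and the Lama2 window held 1, and neither held TGANTCA. Over 33469 RefSeq promoters searched across 250 bases before the start, 6.34% held at least 1 TGANTCA and 5 promoters (0.0149%) held 3 or more, while 30.5% held at least 1 GGGCGG and 7.41% held 3 or more. The Lama3 start site lay 154.869 kb into the RefSeq gene, whereas that of Lama5 was the start of its gene. Lama3 is known to use an internal promoter for a short α3 chain and an upstream one for a long chain. A match describes letters only, and binding was not measured.

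FPKM values, which are per length, ordered the laminin genes by level. Lamc1, the γ chain of most trimers, was highest at 74.8 to 82.0 FPKM over the 6 nerves. Lamb1 followed at 45.7 to 49.7 FPKM and Lamb2 at 17.6 to 19.3 FPKM. Both code for β chains that pair with γ1. Lama5 at 10.6 to 11.7 FPKM and Lama3 at 7.78 to 9.84 FPKM were the leading α chains. Lama4, the α chain best known from vessel walls and early nerve, was at 1.42 to 1.90 FPKM. Lamb3, a β chain known from epithelia, was at 0.519 to 0.902 FPKM. Lama2 was at 0.00413 to 0.0339 FPKM and Lama1, the α chain of the early embryo, at 0 to 0.0107 FPKM. Among the members that passed the filter, no pair of neighbours in this order overlapped in range. Of the laminin chains outside the 9 members, Lamc3 had a single count in the 6 nerves, and Lamb4 was not analysed here.

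**Figure D1:**
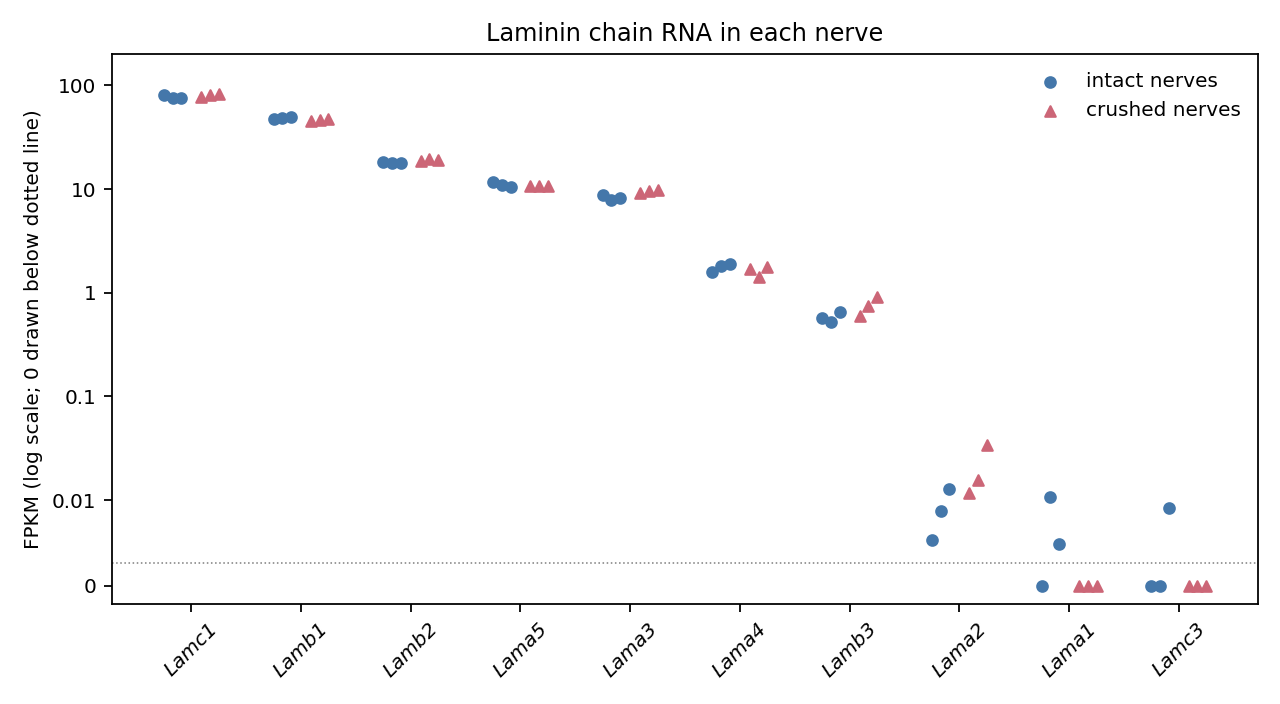
FPKM on a log axis for 10 laminin genes, with 1 point per nerve (circles, intact; triangles, crushed) and values of 0 drawn under the dotted line. Lamc1 lies at 74.8 to 82.0 FPKM and Lama2 at 0.00413 to 0.0339 FPKM, and the distance between groups within a gene is small against that between most genes.

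Of the 9 members, 7 passed the filter on low counts, and all 7 are chains that were present in both groups. None passed the limits of the study for a differentially expressed mRNA (log2 fold change beyond 1 and unadjusted p under 0.001). Over all genes tested, 0.218% passed them with crushed nerves higher and 0.0646% with crushed nerves lower. None reached an adjusted p under 0.05 (edgeR quasi-likelihood test with Benjamini-Hochberg adjustment over all 12393 genes), where 1.47% of all genes did so with crushed nerves higher and 1.65% with crushed nerves lower. Those shares were 182 and 205 genes, and a separate fit by limma on log2(FPKM + 0.1) called 156 higher and 86 lower. At an unadjusted p under 0.05 there were 2 members, Lama3 and Lamb1, and 2009 of all genes. The log2 fold change was positive for 4 members and negative for 3, with a median of 0.04 against −0.0017 over all genes. The median size without sign was 0.0873 for the members and 0.0820 for all genes. The 3 crushed nerves lay wholly above the 3 intact ones for 2 members and wholly below for 1, where 10.8% and 12.2% of all genes did so. With 3 nerves in each group, an exact two-sided permutation test cannot give a p under 0.1.

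Among the α chains, Lama3 stood nearest to the limit. The α3 chain binds integrins α3β1 and α6β4. Lama3 (ENSRNOG00000011300, Rnor_6.0 chr18:3861539-3940823) measured 46.2, 40.5 and 42.9 normalized CPM (counts scaled to library size, with TMM factors) in the intact group, against 47.0, 49.9 and 50.6 CPM after the crush. Every crushed nerve was above every intact nerve, with the crushed 1 nerve close to the intact 1 nerve. The means were 43.2 ± 2.88 and 49.2 ± 1.93 CPM (SD, n = 3 each), a log2 fold change of 0.19 ± 0.0626 (SE) with an adjusted p of 0.165 by edgeR. The exact permutation p was 0.1, and the 95% interval of the fold ran from 1.03 to 1.25. Without the intact 1 nerve the log2 fold change was 0.24 and the adjusted p 0.0477, so that nerve decided the side of the limit. The counts and FPKM of Lama3 imply a transcript of 5178 bases in the deposited table, against 11319 bases for Lama5.

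Lama5 (ENSRNOG00000053691, chr3:175553045-175601127) codes for the α5 chain of widespread adult basement membranes. It had 133.6, 123.4 and 120.0 CPM in intact nerves and 120.7, 120.1 and 120.4 CPM in crushed nerves. The groups overlapped, and the crushed nerves lay near the lowest intact nerve. The log2 fold change was −0.06 ± 0.0476 (adjusted p 0.567, edgeR), with a fold between 0.891 and 1.03. Lama4 (ENSRNOG00000000599, chr20:44060731-44209614) had 9.45, 10.8 and 11.3 CPM in intact and 10.1, 8.43 and 10.4 CPM in crushed nerves. These also overlapped, with a log2 fold change of −0.12 ± 0.110 (adjusted p 0.628, edgeR) and a fold between 0.775 and 1.09.

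Both α chains under the filter were close to the floor of the method. Lama2 (ENSRNOG00000011134, chr1:18491384-19143269), the Schwann cell α chain whose loss causes a muscular dystrophy with neuropathy, was counted 1, 2 and 3 times in the intact group and 3, 4 and 8 times in the crushed group. The sums of 6 and 15 counts gave a ratio of 2.40 relative to depth, with a counting interval from 0.881 to 7.56 that covers counting error only. Fitted without the filter, Lama2 had an adjusted p of 0.549 by edgeR, so no difference was detectable at these counts. Lama1 (ENSRNOG00000017237, chr9:115916907-116042123) was counted 0, 3 and 1 times in the intact group and 0 times in every crushed nerve, where 3 counts, the limit that a count of 0 allows, are worth 0.110 to 0.121 CPM over the 6 nerves. No fold was given for it.

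The β chains had log2 fold changes of both signs. Lamb1 (ENSRNOG00000005678, chr6:50528823-50596079) had 271.0, 274.2 and 281.4 CPM in intact nerves and 256.4, 257.9 and 263.8 CPM in crushed nerves. Every crushed nerve was below every intact nerve. The means were 275.5 ± 5.36 and 259.4 ± 3.95 CPM, a log2 fold change of −0.09 ± 0.0374 with an adjusted p of 0.279 by edgeR. The fold lay between 0.889 and 0.997.

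Lamb2 (ENSRNOG00000047768, chr8:117268337-117280517), the β chain of synaptic and kidney basement membranes, had 125.9, 120.1 and 120.3 CPM in intact nerves and 126.4, 130.3 and 128.7 CPM in crushed nerves. The crushed nerves were all above the intact nerves, the crushed 1 nerve by less than the spread of the intact ones. The log2 fold change was 0.07 ± 0.0411 (adjusted p 0.414, edgeR), with a fold between 0.988 and 1.12. Lamb3 (ENSRNOG00000006025, chr13:112031594-112073186) had 60, 57 and 67 counts in intact and 67, 83 and 93 counts in crushed nerves. Its groups overlapped in CPM at 2.41 ± 0.274 and 3.07 ± 0.629, and the log2 fold change of 0.35 ± 0.184 was the largest of the 7 tested members, with an adjusted p of 0.387 by edgeR. Its fold interval, 0.960 to 1.69, was also the widest of the 7.

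Lamc1 (ENSRNOG00000002680, chr13:70656727-70783515) had 618.0, 581.3 and 572.6 CPM in intact nerves and 592.0, 608.0 and 622.2 CPM in crushed nerves. The groups overlapped, at 590.6 ± 24.1 and 607.4 ± 15.1 CPM. The log2 fold change was 0.04 ± 0.0414 with an adjusted p of 0.682 by edgeR, and the fold lay between 0.965 and 1.10. For each of the 7 members the 95% interval of the fold excluded a doubling and a fall to 0.5-fold.

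**Figure D2:**
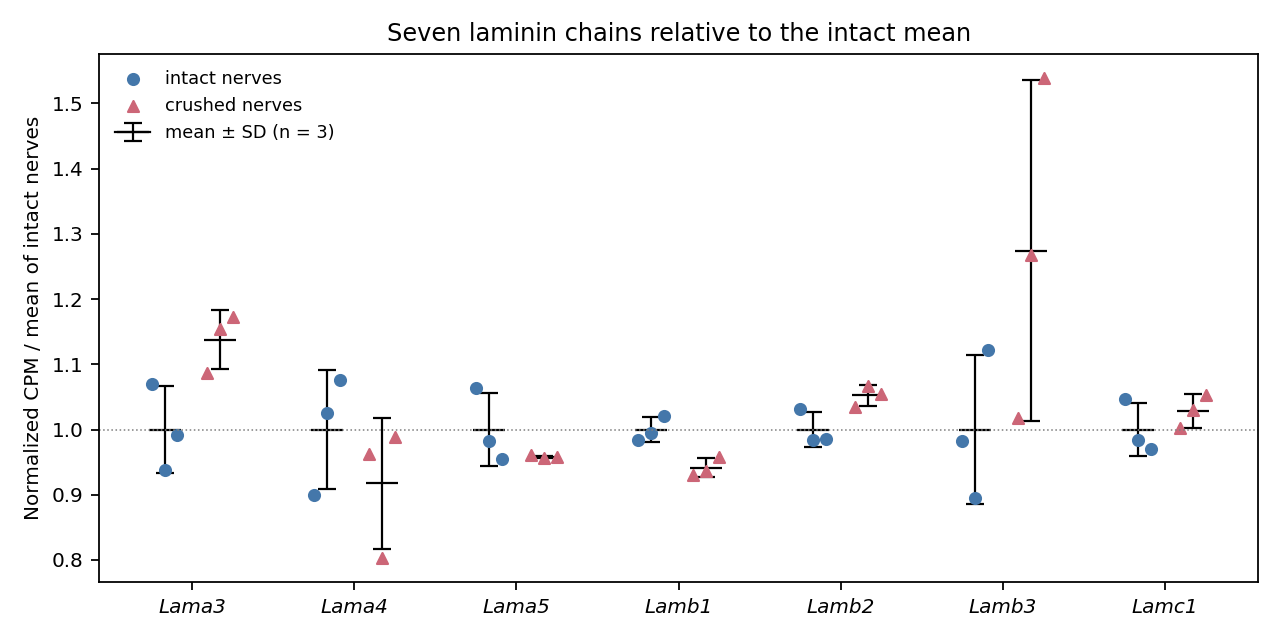
Normalized CPM of the 7 members that passed the filter, divided by the mean of the 3 intact nerves of the same gene; points are nerves, and bars are the mean ± SD (n = 3). The crushed nerves of Lama3 and Lamb2 lie above and those of Lamb1 below all intact nerves, while Lamb3 has the widest spread.

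The make-up of the α and β chain classes was given as its share of the summed FPKM of the class, as a description with no test. The α class summed to 20.4 to 22.3 FPKM per nerve. Lama5 held 52.3% ± 1.15 of it in intact and 48.9% ± 0.905 in crushed nerves (SD, n = 3), and Lama3 held 39.3% ± 1.06 and 43.6% ± 1.14. Lama5 thus exceeded Lama3 by 1.28 to 1.39 times in intact and by 1.09 to 1.18 times in crushed nerves. These ranges did not overlap, but neither did those of Lama3 alone, and 23.0% of all genes tested had no overlap in CPM. Lama4 held 8.35% ± 1.09 and 7.44% ± 0.781, and Lama2 held 0.0187% to 0.152% over the 6 nerves.

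The β class summed to 65.1 to 68.1 FPKM. Lamb1 held 72.4% ± 0.818 of it in intact and 70.0% ± 0.348 in crushed nerves, Lamb2 26.8% ± 0.849 and 28.9% ± 0.387, and Lamb3 0.863% ± 0.0885 and 1.13% ± 0.214. The ratio of Lamb1 to Lamb2 was 2.71 ± 0.115 in intact and 2.42 ± 0.0428 in crushed nerves. Shares were not given for the γ chains. The shares within a class depend on one another, and they rest on the transcript lengths used for FPKM.

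**Figure D3:**
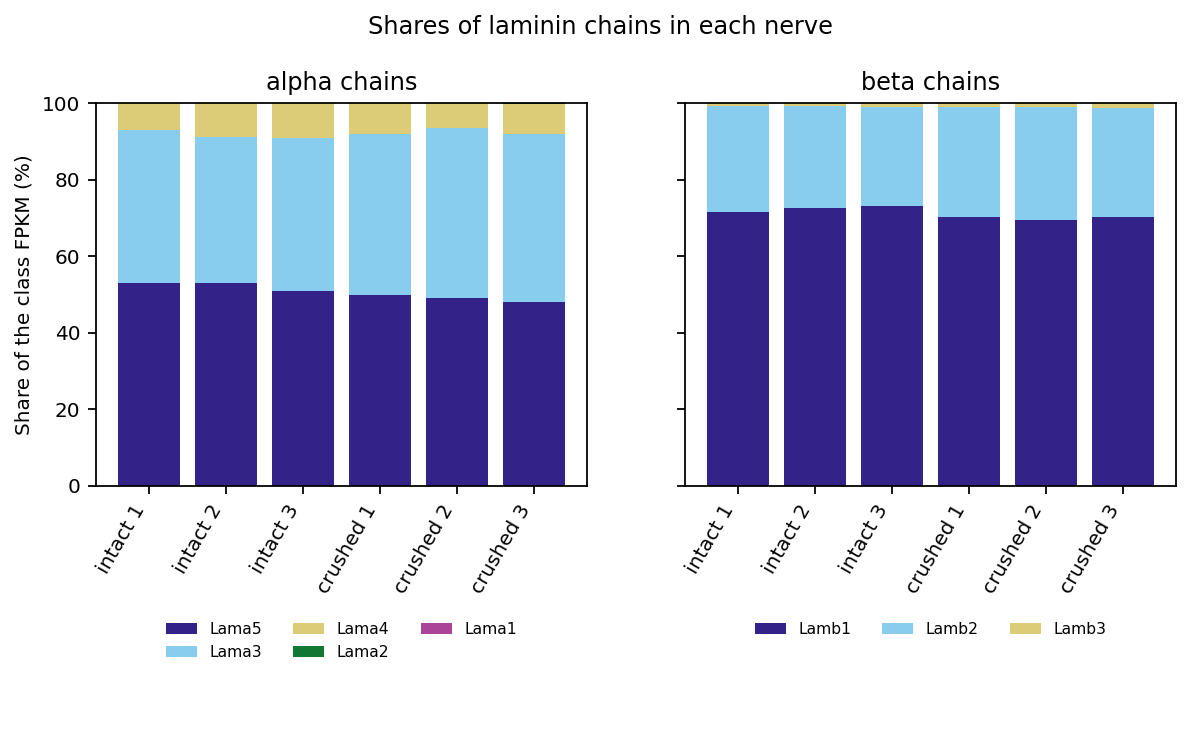
Stacked bars of the share of each chain gene in the summed FPKM of the α and β class (percent), with 1 bar per nerve. Lama5 and Lama3 together fill most of the α class and Lamb1 leads the β class in all 6 nerves.

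The levels were then set against 13 known laminin trimers, written as their α, β and γ chains. A trimer was counted where all its chains exceeded the floor of 3 counts in every nerve, and 6 of the 13 did so in both groups. These were α5β1γ1, α5β2γ1, α3β1γ1, α3β2γ1, α4β1γ1 and α4β2γ1. In each of them the α chain RNA was the lowest of the 3 chains. Lamb3 is a chain of none of the trimers listed here. The summed β chains exceeded the summed α chains by 3.00 to 3.28 times and Lamc1 exceeded the summed α chains by 3.61 to 3.70 times, while Lamc1 over the summed β chains was 1.10 to 1.22. The α2β1γ1 and α2β2γ1 trimers had all chains above the floor in only 2 of the 6 nerves, crushed 2 and crushed 3. Lama2 was at or under 3 counts in the other 4. Trimers with α1 or γ3 had none. The lowest chain differed between trimers from 10.6 to 11.7 FPKM for those with α5 to 1.42 to 1.90 FPKM for those with α4. The same 6 trimers were counted in crushed as in intact nerves, since the count required all 6. RNA levels set no more than which chains could be made, and neither assembly nor protein was measured.

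Laminin is held in the basal lamina by other matrix proteins. Of 20 named partners 10 were tested, and 3 fell and 1 rose at an adjusted p under 0.05, with a median log2 fold change of −0.20. Over all genes tested, 1.65% fell and 1.47% rose at that limit. The nidogens, which link laminin γ1 to collagen IV, went opposite ways. Nid1 fell from 64.8 ± 1.22 to 51.0 ± 0.905 CPM, a log2 fold change of −0.35 ± 0.0474 (adjusted p 0.00227, edgeR), and Nid2 rose from 121.8 ± 4.46 to 142.2 ± 4.59 CPM, or 0.22 ± 0.0451 (adjusted p 0.0240, edgeR). Col18a1, a heparan sulfate-bearing collagen, fell with a log2 fold change of −0.24 (adjusted p 0.0276, edgeR), and Col4a5, a collagen IV chain, fell with −0.22 (adjusted p 0.0366, edgeR). Sparc, a collagen-binding matrix protein with the highest FPKM of the list, had −0.23 with an adjusted p of 0.0777 by edgeR, but passed with DESeq2 (0.0148) and without intact 3 (0.0173, edgeR, at −0.30). The call of Nid1 held without any single nerve. That of Nid2 was lost when any nerve but intact 1 was left out (adjusted p 0.0518 to 0.135, edgeR), that of Col4a5 likewise (0.0944 to 0.181), and that of Col18a1 without intact 2 or any crushed nerve (0.0797 to 0.131). Col4a1, Col4a2, Col4a6, Col15a1, Pxdn and Smoc2 were listed at 0 in all nerves. Summed fibroblast and mural markers were also lower in crushed nerves. Of 6 tested fibroblast markers, 5 had a negative log2 fold change and 1 a positive one, and 5 lay wholly lower in crushed nerves. All 6 had an unadjusted p under 0.05, 2 fell at an adjusted p under 0.05 and 1 fell past the limits of the study (edgeR). All 5 tested mural markers had a negative log2 fold change, 3 lay wholly lower and 2 fell at an adjusted p under 0.05. Of all genes tested, 12.2% lay wholly lower, 16.2% had such an unadjusted p and 0.0646% fell past the limits of the study. The 9 fibroblast markers summed to 172.7 to 186.1 FPKM in intact and 150.0 to 165.9 FPKM in crushed nerves, with Col1a2, Dcn and Lum at 0. The 8 mural markers summed to 40.1 to 43.2 and 33.3 to 34.6 FPKM, with Rgs5 at 0. All 4 tested perineurial markers had a negative log2 fold change, and of 4 tested endothelial markers 3 had a positive one. None of either list reached an adjusted p under 0.05 (edgeR). The part of any of these lists in the results was not tested.

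Among 13 laminin receptors 11 were tested, of which 2 fell and 1 rose at an adjusted p under 0.05, with a median log2 fold change of −0.05. The shares of all genes at that limit were 1.65% lower and 1.47% higher in crushed nerves. Itga3, the α3 integrin that binds α3 and α5 laminins, fell from 1693 ± 31.7 to 1418 ± 7.38 CPM, a log2 fold change of −0.25 ± 0.0332 (adjusted p 0.00167, edgeR). Itga6, the α6 integrin of laminin receptors, fell from 774.9 ± 25.2 to 649.5 ± 9.12 CPM, or −0.25 ± 0.0378 (adjusted p 0.00372, edgeR). Both calls held without any single nerve. Itga2, an integrin that binds collagen and laminin, had 26, 22 and 17 counts in intact and 55, 40 and 54 counts in crushed nerves. It rose by a log2 fold change of 1.14 ± 0.239 (adjusted p 0.0290, edgeR) and alone of the listed partners and receptors passed the limits of the study. It met neither limit for p without intact 2, intact 3, crushed 1 or crushed 3 (adjusted p 0.0868 to 0.124, edgeR), and by limma on log2(FPKM + 0.1) and log2(FPKM + 1) its log2 fold change was 0.89 and 0.29, short of both limits of the study. Itgb1, the β chain shared by these integrins, had 0.17 with an adjusted p of 0.0513, and Rpsa, a ribosomal protein that also binds laminin and had the highest FPKM of the list, had −0.05 with an adjusted p of 0.537 (edgeR for both).

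The dystroglycan complex ties laminin to the cytoskeleton, and glycosylation enzymes build its laminin-binding sugar. Of 26 named genes 16 were tested, and 1 fell and none rose at an adjusted p under 0.05, with 4 at an unadjusted p under 0.05, where 1.65% of all genes fell and 16.2% had such a p, and a median log2 fold change of −0.04. The gene that fell was Dmd, which codes for dystrophin and a short form in Schwann cells. It had 85, 88 and 106 counts in intact and 66, 48 and 56 counts in crushed nerves, a log2 fold change of −0.77 ± 0.174 (adjusted p 0.0397, edgeR), and the call was lost without any 1 of the 6 nerves (0.0502 to 0.161). Dag1, dystroglycan itself, had −0.10 with an adjusted p of 0.318, and Pomgnt1, a sugar-adding enzyme with the highest FPKM of the list, had −0.03 with an adjusted p of 0.764 (edgeR for both).

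**Figure D4:**
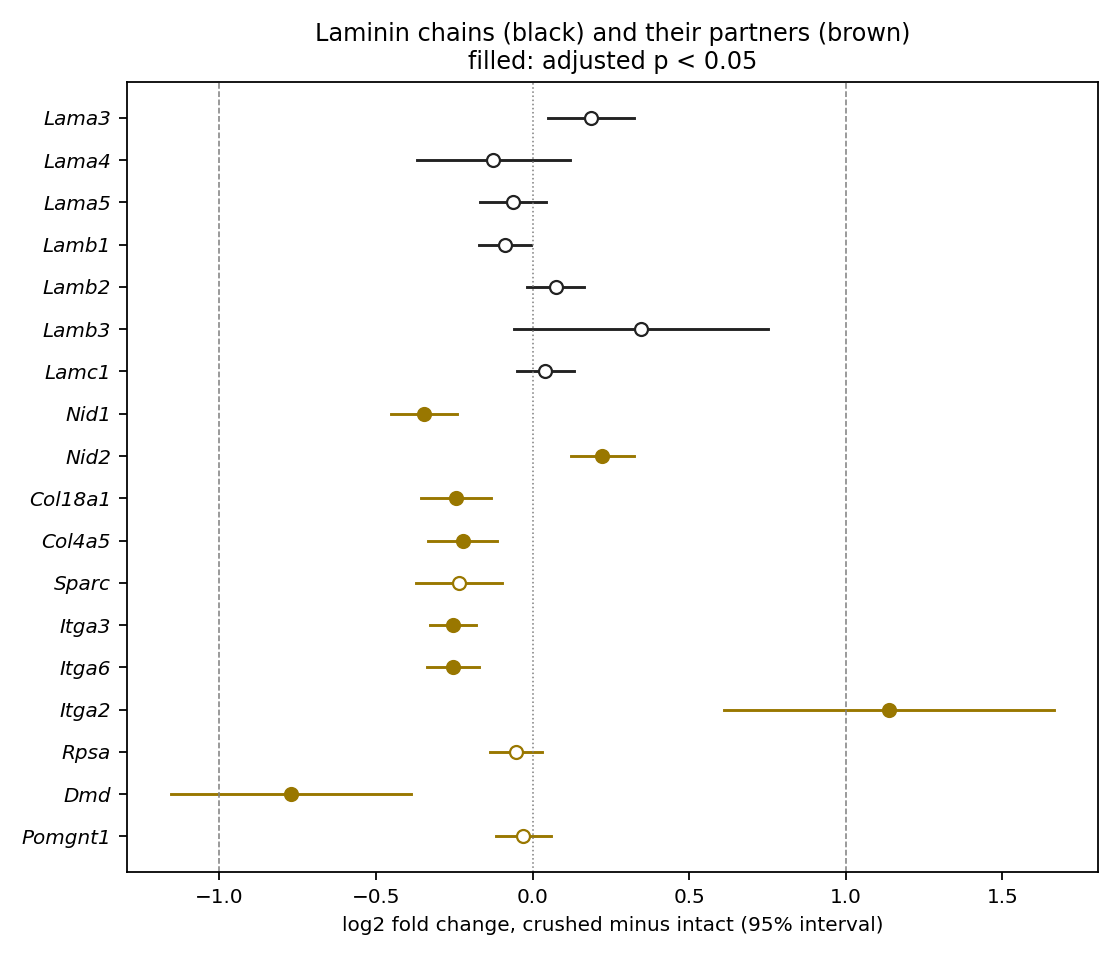
Log2 fold change (crushed minus intact) with its 95% interval for 7 laminin chain genes (black) and 11 named partners and receptors (brown); filled points have an adjusted p under 0.05, and dashed lines mark −1 and 1. No laminin point is filled, Itga2 lies at 1.14 and Dmd at −0.77.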

How the data were processed

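RNA was sequenced from 3 crushed and 3 intact sciatic nerves, grouped by the source labels. The submitters' processing notes name HISAT2, StringTie 1.3.0 and the Rnor_6.0 build. The counting rule and annotation release are not given in the sources used here. The authors deposited raw gene counts and FPKM in the same table. Counts were normalized by TMM, filtered with filterByExpr and fitted with the quasi-likelihood test of edgeR 4.0.16 in R 4.3.3 on all genes, without a block, and p-values were adjusted by the Benjamini-Hochberg method. Levels of different genes were compared by FPKM. The fit was tested on simulated data. DESeq2 1.42.0, RLE scaling, no filter, limma 3.58.1 on log2(FPKM + 0.1) and log2(FPKM + 1), a replicate block and leaving out each nerve were alternatives. Depth was 24844371 to 27139360 counts per nerve, and intervals and floors on counts cover counting error only. Named genes were all members, the other laminin chains analysed here, and from each list up to 4 genes with an adjusted p under 0.05 and the gene of highest FPKM. Itgb1, Dag1 and genes listed at 0 are not covered by that rule. Some laminin and marker genes are not reported here. The members and lists were chosen with earlier results of these data known.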

Additional observations from a re-analysis of the deposited data

How the results depend on the processing

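No member passed the limits of the study in either direction under any alternative. Under leave-one-out, the number of members with an adjusted p under 0.05 and crushed nerves higher ranged from 0 to 1, the 1 being Lama3 without intact 1, and the number without overlap of the groups ranged from 3 to 5, with 5 without intact 1 or intact 3, where the share of all genes without overlap also went from 23.0% to 32.5% and 35.4%. On deposited FPKM, an alternative chosen after seeing the data, it was 3, as in the CPM. Over 12 alternatives the 7 tested members kept their direction, with Lama3 at 0.14 to 0.24 (adjusted p 0.0477 to 0.406) and Lamb1 at −0.10 to −0.07 (0.200 to 0.561). Which nerves share a rat is not given, so the nerves were not treated as paired. Deviations of nerves with the same number correlated at −0.0166, 0.00646 and 0.0750. These correlations cannot exclude pairs, since nerves of a rat may carry different numbers. With a replicate block Sparc passed (adjusted p 0.0333), Itga2 missed the p limit of the study (p 0.00128), Lama3 had a log2 fold change of 0.19 with an adjusted p of 0.223, and all genes gave 146 calls higher and 154 lower against 182 and 205. On FPKM, limma gave 156 higher and 86 lower with a pseudocount of 0.1, and 162 and 94 with 1. DESeq2 gave 221 and 291, and leaving out a nerve gave 100 to 218 and 75 to 174, lowest without crushed 1 and crushed 2. The block and both FPKM fits lost the calls of Col18a1, Itga2 and Dmd, and the FPKM fits that of Col4a5; the cause was not tested. Low counts limit Lama1 and Lama2, and DESeq2 gave no adjusted p for Lama2.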
